A study of Mus musculus with 11 samples.

Results

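The miR-17, miR-18 and miR-19 seed families are small groups of miRNAs that share bases 2 to 8, the seed through which a miRNA recognises its target mRNAs. The deposited tables list 1907 mouse miRNA names, and 10 of them were taken here by name: arms from 2 clusters, miR-17/miR-92a and miR-106b/miR-25, without those that carry the seed of miR-25 and miR-92a and without arms of at most 11 counts in any library. All 10 of 10 passed the filter on low counts that 479 of the 1907 names passed. By seed, 7 of them belong to the 3 families, and mmu-miR-17-3p, mmu-miR-106b-3p and mmu-miR-93-3p are the partner arms of family members. The clusters were chosen by their levels in pMCAO and sham libraries, which had been seen, so the values that set pMCAO against sham are given as a description. Whether the fit across all miRNAs called a member is stated, but with no p, and it is no independent support.

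Small RNA was sequenced from the brains of 11 male Balb/cOlaHsd mice, 1 library per mouse, 3 days after surgery. In 5 mice the left middle cerebral artery was closed permanently by heat (pMCAO, permanent middle cerebral artery occlusion), a model of stroke without reperfusion. In 6 sham mice the artery was exposed and lifted but not closed. The labels give an age of 3 months for every mouse, where the methods give a range that reaches higher, and name the tissue as cortex in sham and peri-ischemic cortex, the rim around the lesion core, in pMCAO, whereas the methods call both peri-ischemic. The names of the deposited data carry the word vehicle for both groups, but what was given is not stated in the sources used here. No other treatment or genetic change is named for either group. mmu-miR-124-3p, a miRNA of neurons, had a mean of 209811 ± 22259 CPM over the 6 sham libraries and of 168631 ± 12682 CPM over the 5 pMCAO libraries (SD). It marks neural tissue of any region and so does not check the cortical label. In the fit of pMCAO against sham mmu-miR-124-3p was not called (log2 fold change -0.32, standard error 0.09). Its groups still did not overlap, with at most 179928 CPM in pMCAO and at least 180835 CPM in sham. The share of all tested miRNAs that were lower in this way is not given here. Other miRNAs of neurons were not called either, and their groups overlapped: mmu-miR-9-5p at -0.10, mmu-miR-128-3p at -0.39 and mmu-miR-138-5p at 0.21. In bulk tissue, fewer cells of a type and less RNA per cell cannot be told apart.

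Each cluster is transcribed as a long precursor from which several hairpins are cut, and either arm of a hairpin can become the mature miRNA. miR-17/miR-92a is known as an oncogenic cluster that MYC and E2F factors switch on and that promotes proliferation, and miR-106b/miR-25 is carried inside Mcm7, a gene of the DNA replication helicase. A mature miRNA guides Argonaute to mRNAs whose sites pair with its seed, and these mRNAs are then repressed, so that miRNAs from different loci with 1 seed are expected to share many targets.

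In the GENCODE vM21 annotation of GRCm38, the 6 hairpins of miR-17/miR-92a lie at chr14:115043671-115044506 on the plus strand, a stretch of 836 bases that is exonic in the long non-coding RNA gene Mir17hg. The 3 hairpins of miR-106b/miR-25 lie at chr5:138165321-138165818 on the minus strand, a stretch of 498 bases inside Mcm7. Mir106b is intronic in 2 of the 2 Mcm7 transcripts that span it, and Mir93 is intronic in 2 of 3 and exonic in 1. A paralogous cluster, miR-106a/miR-363, lies at chrX:52741693-52742567.

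The mature sequences show why the members fall into families, and which of them could exchange reads. RefSeq sequences (GRCm38.p6) were found for all 10 members and are written 5′ to 3′ with the seed in capitals. The miR-17 seed is carried by 4 members:
mmu-miR-17-5p: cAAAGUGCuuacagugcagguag
mmu-miR-20a-5p: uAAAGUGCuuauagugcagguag
mmu-miR-106b-5p: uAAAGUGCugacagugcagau
mmu-miR-93-5p: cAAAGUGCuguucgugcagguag

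The miR-18 seed has 1 member, with a single base changed inside the seed relative to the miR-17 seed (A4G from mmu-miR-20a-5p to mmu-miR-18a-5p, positions counted from 1 at the 5′ end and the first-named miRNA's base first). The miR-19 seed has 2 members that differ only by U11C, from mmu-miR-19a-3p to mmu-miR-19b-3p:
mmu-miR-18a-5p: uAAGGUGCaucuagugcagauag
mmu-miR-19a-3p: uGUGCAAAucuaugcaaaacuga
mmu-miR-19b-3p: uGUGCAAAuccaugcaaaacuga

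The 3 partner arms carry seeds of their own:
mmu-miR-17-3p: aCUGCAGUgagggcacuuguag
mmu-miR-106b-3p: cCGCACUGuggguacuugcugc
mmu-miR-93-3p: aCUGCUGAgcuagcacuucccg

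The hairpin of miR-17 is shown as 1 of 3 with both arms among the members, and here the capitals mark the 5p arm and then the 3p arm (chr14:115043671-115043754, plus strand):
Mir17: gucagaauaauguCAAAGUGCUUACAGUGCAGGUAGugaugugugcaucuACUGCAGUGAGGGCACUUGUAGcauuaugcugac

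The nearest sequences outside the members belong to the chromosome X cluster. The change from mmu-miR-17-5p to mmu-miR-106a-5p is U10A alone, and from mmu-miR-18a-5p to mmu-miR-18b-5p the changes are A18U and A20U:
mmu-miR-106a-5p: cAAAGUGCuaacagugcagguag
mmu-miR-18b-5p: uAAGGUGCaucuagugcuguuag

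How reads that match several miRNAs were counted is not given in the sources used here. The chromosome X names held few counts, with at most 5 counts of mmu-miR-106a-5p, 8 of mmu-miR-20b-5p and 1 of mmu-miR-18b-5p in any library. Of the 10 names of that cluster in the tables, 0 passed the filter, and 4 were at 0 in all 11 libraries. mmu-miR-19b-3p is the exception in origin, since Mir19b-1 in miR-17/miR-92a and Mir19b-2 on chromosome X give the same mature sequence and their reads cannot be told apart. The partner arm of the first reached 11 counts and that of the second 1 count. Of the other names with a member's seed, mmu-miR-6383 (miR-17 seed) and mmu-miR-106a-3p (seed of mmu-miR-17-3p) were at 0 in all 11 libraries, and mmu-miR-20b-3p (seed of mmu-miR-17-3p) had at most 3 counts.

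Levels are given in CPM, the count of a miRNA relative to its library's size after TMM scaling, a method that sets the sizes so that most miRNAs do not move. Library totals ran from 1429037 to 2319810 counts in sham and from 744877 to 1411620 in pMCAO, so that 3 counts are worth 1.29 to 4.03 CPM. The lowest count of any member was 20, for mmu-miR-106b-3p in sham replicate 5. That library stood apart from the rest. In it, 35 of the tested miRNAs lay more than 1 log2 unit from their group mean, against 3 to 18 in each of the other libraries.

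In sham replicate 5, miRNAs whose first base is C tended to be low. Of the 28 with a RefSeq sequence that lay more than 1 log2 unit below their group mean there, 18 begin with C. The 91 tested miRNAs that begin with C had a median deviation of -0.43 on the log2(CPM + 1) scale in that library, against 0.05 for the 111 that begin with A, -0.05 for the 50 with G and 0.05 for the 165 with U. Among the 247 tested miRNAs with a RefSeq sequence and a mean of at least 100 counts, 45 of the 46 that begin with C were below their group mean there, and 90 of the 201 others. In no other library did the median of the miRNAs that begin with C lie further than 0.19 from 0. The 3 members that begin with C were the members lowest against their group mean in sham replicate 5: mmu-miR-17-5p by -1.12, mmu-miR-106b-3p by -0.82 and mmu-miR-93-5p by -0.56. The other 7 lay between -0.26 and 0.27. This pattern was noticed in the data, and its cause was not tested. Most values of these 3 members, and of sums and shares that hold them, are given with and without sham replicate 5.

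**Figure D1:**
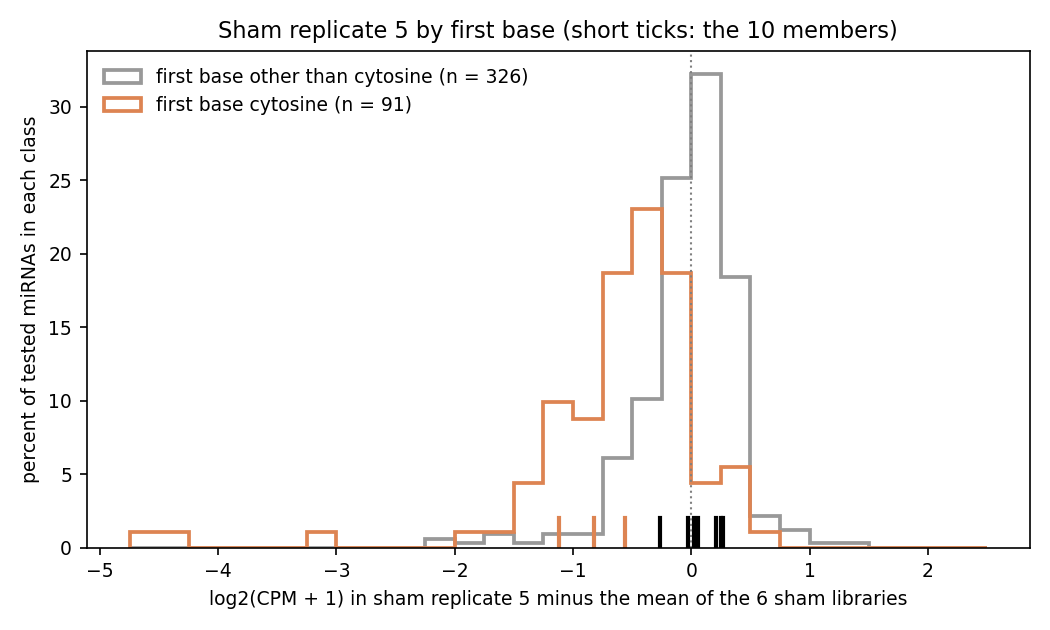
Deviation of each tested miRNA in sham replicate 5 from the mean of the 6 sham libraries, on the log2(CPM + 1) scale (x axis), as the percent of miRNAs in each class (y axis), for 91 miRNAs whose first base is cytosine (orange) and 326 with another first base (grey). Short ticks mark the 10 members, in orange for the 3 that begin with cytosine, and these 3 sit furthest to the left.

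In sham cortex the miR-17 and miR-19 seeds were about equally abundant, and the miR-18 seed was far scarcer. The 4 miRNAs of the miR-17 seed summed to 2487 ± 309 CPM (SD, n = 6), the 2 of the miR-19 seed to 2401 ± 320 CPM and mmu-miR-18a-5p stood at 129 ± 14.9 CPM. Without sham replicate 5 the sum of the miR-17 seed was 2595 ± 179 CPM. Within the miR-17 seed, the 2 miR-106b/miR-25 miRNAs held the larger part, with 36.2% ± 3.38 for mmu-miR-93-5p and 33.1% ± 4.73 for mmu-miR-106b-5p (SD, n = 6), or 37.3% ± 2.41 and 31.2% ± 1.75 without sham replicate 5. Among all names, mmu-miR-19b-3p ranked 65 by mean sham level, the highest of the members, and mmu-miR-106b-3p ranked 357, the lowest.

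The order of the levels within sham did not enter the choice of members and could be tested, although the direction of each pair is set by the ordering itself. From high to low it ran mmu-miR-19b-3p, mmu-miR-93-5p, mmu-miR-106b-5p, mmu-miR-20a-5p, mmu-miR-17-5p, mmu-miR-19a-3p, mmu-miR-18a-5p, mmu-miR-93-3p, mmu-miR-17-3p and mmu-miR-106b-3p. Of the 9 pairs of neighbours in this order, 6 differed in the same direction in 6 of 6 libraries (two-sided exact sign-flip permutation test of log2(CPM + 1) ratios, p = 0.03125, the lowest that 6 libraries can give, adjusted p = 0.0469 over the 9 pairs). The mean log2 ratios of these 6 pairs lay between 0.69, for mmu-miR-19a-3p over mmu-miR-18a-5p, and 1.33, for mmu-miR-18a-5p over mmu-miR-93-3p.

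The other 3 pairs did not differ beyond their spread. mmu-miR-93-5p was above mmu-miR-106b-5p in 4 of 6 sham libraries (exact permutation p = 0.375, adjusted p = 0.375, mean log2 ratio 0.14 ± 0.33, SD, n = 6). mmu-miR-17-5p was above mmu-miR-19a-3p in 5 of 6 (exact permutation p = 0.219, adjusted p = 0.281), and the library that went the other way was sham replicate 5, where mmu-miR-17-5p stood at 123 CPM and mmu-miR-19a-3p at 241 CPM. mmu-miR-93-3p was above mmu-miR-17-3p in 4 of 6 (exact permutation p = 0.281, adjusted p = 0.316). Ligation and amplification can favour some sequences over others, so an order of counts need not be an order of molecules. The mature lengths are 21 to 23 bases, and each read stands for 1 miRNA, so levels were not divided by length.

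**Figure D2:**
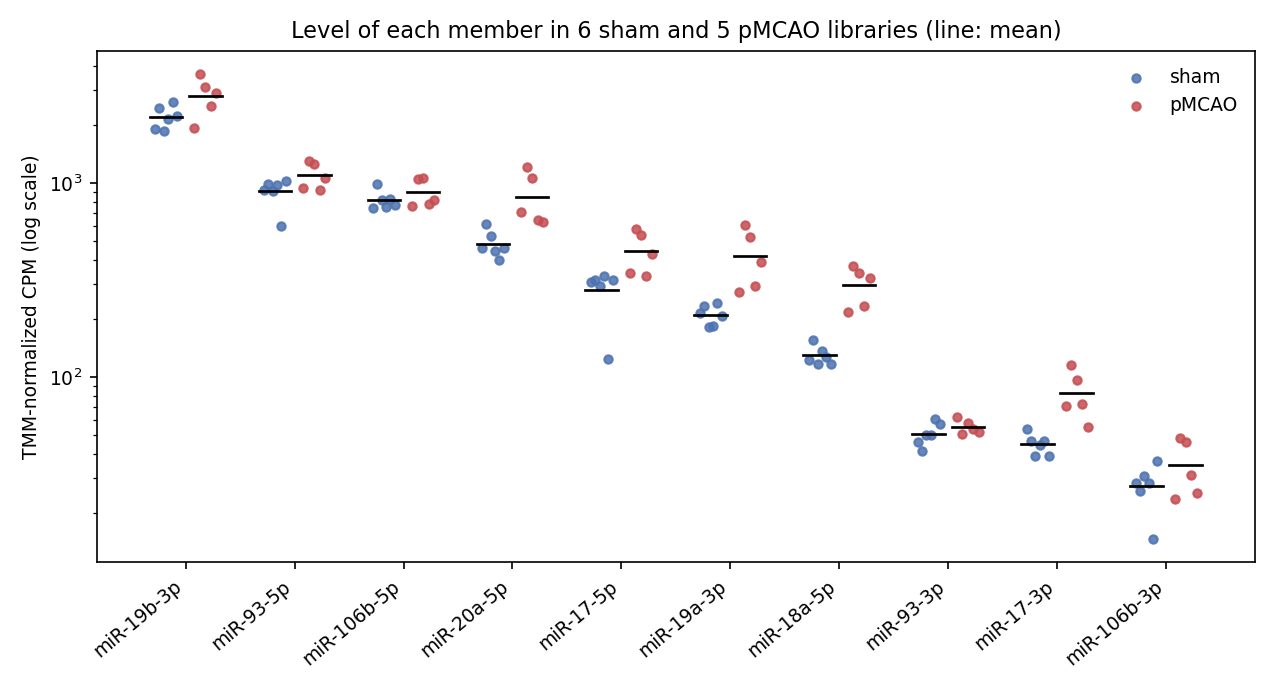
TMM-normalized CPM on a log scale (y axis) of the 10 members (x axis, ordered by mean sham level), with 1 point for each of 6 sham (blue) and 5 pMCAO (red) libraries and a black line at each group mean. The pMCAO points of miR-18a-5p, at 216 CPM or more, stand clear of its sham points, at 156 CPM or less, whereas those of miR-106b-5p and miR-93-5p overlap, and the lone low sham points of miR-17-5p, miR-93-5p and miR-106b-3p are all sham replicate 5.

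At 3 days after occlusion, mean levels of the miR-17/miR-92a members were 1.29 to 2.30 times those in sham. Those of the miR-106b/miR-25 members were 1.08 to 1.27 times those in sham. The 1.27 is that of mmu-miR-106b-3p, which begins with C. Its sham mean was 27.5 CPM, or 30.1 CPM without sham replicate 5. edgeR's quasi-likelihood test over all 479 miRNAs called 4 of the 10 members higher at an adjusted p under 0.05, where 4.38% of all tested miRNAs were called higher. The 4 were mmu-miR-17-3p, mmu-miR-18a-5p, mmu-miR-19a-3p and mmu-miR-20a-5p, all from miR-17/miR-92a. Since the members were picked with this contrast known, nothing is read from the count.

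mmu-miR-18a-5p, the only member with the miR-18 seed, had the largest log2 fold change among the members. In sham its level ran from 117 to 156 CPM with a median of 124.5 CPM, and in pMCAO replicates 1 to 5 it was 216, 371, 343, 232 and 324 CPM. The lowest pMCAO library was above the highest sham library. The means were 129 ± 14.9 CPM (SD, n = 6) and 297 ± 69.0 CPM (SD, n = 5), and the log2 fold change was 1.20 (standard error 0.15).

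The 2 miRNAs of the miR-19 seed had unlike fold changes, and part of mmu-miR-19b-3p may come from chromosome X. mmu-miR-19a-3p ran from 180 to 241 CPM in sham, with a median of 210 CPM, and was 273, 607, 528, 295 and 392 CPM in pMCAO replicates 1 to 5. Its groups did not overlap, and the log2 fold change was 1.00 (standard error 0.19). mmu-miR-19b-3p, far more abundant in sham, ran from 1857 to 2619 CPM there with a median of 2172 CPM, and was 1922, 3641, 3118, 2500 and 2921 CPM in pMCAO. Its groups overlapped: pMCAO replicate 1 lay near the lowest sham library, and 3 of 5 pMCAO libraries were above the highest one. The log2 fold change of 0.36 (standard error 0.15) was not called.

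As a share of the miR-19 seed, which does not depend on how libraries are scaled, mmu-miR-19a-3p made up 8.77% ± 0.769 in sham (SD, n = 6, range 7.90% to 10.2%) and 12.7% ± 1.67 in pMCAO (SD, n = 5, range 10.6% to 14.5%). Summed over both miRNAs, the miR-19 seed stood at 2401 ± 320 CPM in sham and 3239 ± 787 CPM in pMCAO, with overlap. The mean log2 difference of this sum was 0.41, close to that of its abundant member.

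The miR-17 seed is the one that both clusters feed. mmu-miR-20a-5p, from miR-17/miR-92a, ran from 401 to 612 CPM in sham with a median of 463 CPM, and was 708, 1206, 1061, 643 and 629 CPM in pMCAO replicates 1 to 5, all above every sham library. It was called, at a log2 fold change of 0.80 ± 0.18 (standard error). mmu-miR-17-5p, the founding member of the cluster, ran from 123 to 332 CPM in sham with a median of 312 CPM, and was 344, 581, 539, 333 and 430 CPM in pMCAO. Here the lowest pMCAO library lay just above the highest sham library. It was not called, at a log2 fold change of 0.66 ± 0.23 (standard error). Without sham replicate 5 the sham mean of mmu-miR-17-5p was 314 ± 13.6 CPM in place of 282 ± 78.8 CPM, and the log2 fold change was 0.51.

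The 2 miR-106b/miR-25 miRNAs with the same seed differed less between the groups. mmu-miR-106b-5p ran from 740 to 987 CPM in sham with a median of 792 CPM, and was 756, 1053, 1064, 778 and 819 CPM in pMCAO replicates 1 to 5. In all, 3 of these 5 libraries lay inside the sham range. Its log2 fold change was 0.13 (standard error 0.13), and it ran from 0.06 without pMCAO replicate 3 to 0.21 without sham replicate 2. mmu-miR-93-5p ran from 602 to 1028 CPM in sham with a median of 948 CPM, and was 944, 1303, 1250, 919 and 1062 CPM in pMCAO. These groups overlapped as well, and the log2 fold change of 0.28 (standard error 0.15) was 0.19 without sham replicate 5. Neither was called.

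The make-up of the miR-17 seed differed between the groups accordingly. mmu-miR-17-5p and mmu-miR-20a-5p together, the part from miR-17/miR-92a, were 30.7% ± 2.02 of the reads with this seed in sham (SD, n = 6, range 26.9% to 32.4%) and 38.9% ± 3.01 in pMCAO (SD, n = 5, range 36.0% to 43.1%). The lowest sham value was that of sham replicate 5, and without it the difference of 8.23 percentage points was 7.47. The comparison can also be made between miRNAs with the same first base. mmu-miR-20a-5p was 37.3% ± 2.37 of the 2 members that begin with U in sham and 48.1% ± 3.92 in pMCAO, and mmu-miR-17-5p was 23.3% ± 3.16 of the 2 that begin with C in sham and 28.6% ± 1.92 in pMCAO. Without sham replicate 5 the sham values were 38.2% ± 0.939 and 24.5% ± 0.728. Neither pair had a pMCAO library at or below a sham library. The seed as a whole stood at 2487 ± 309 CPM in sham and 3284 ± 691 CPM in pMCAO, and the groups overlapped (1949 to 2899 CPM and 2672 to 4143 CPM), with a mean log2 difference of 0.39, or 0.32 without sham replicate 5.

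**Figure D3:**
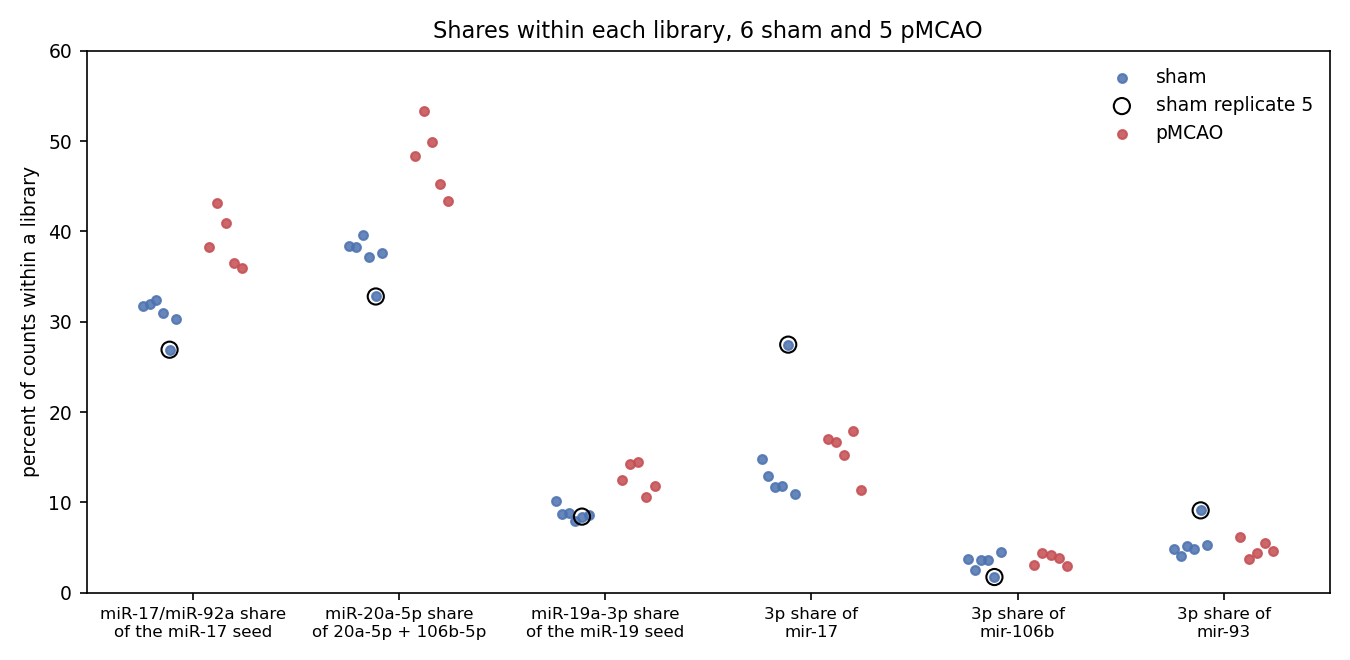
Shares within each library in percent (y axis) for 6 sham (blue) and 5 pMCAO (red) libraries, with sham replicate 5 circled. The first 3 shares, of miR-17/miR-92a in the miR-17 seed, of miR-20a-5p in its pair and of miR-19a-3p in the miR-19 seed, do not overlap between the groups, the 3 shares of a 3p arm do, and sham replicate 5 is the highest sham point for the 3p arms of mir-17 and mir-93.

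The partner arms are released from the same hairpins as the 5p arms and are usually degraded. mmu-miR-17-3p ran from 39.0 to 53.9 CPM in sham with a median of 45.5 CPM, and was 70.9, 116, 96.9, 72.8 and 55.0 CPM in pMCAO replicates 1 to 5. Its pMCAO libraries were all above its sham libraries, the last only narrowly, and the log2 fold change was 0.86 (standard error 0.19). mmu-miR-106b-3p ran from 14.6 to 36.7 CPM in sham and from 23.6 to 48.5 CPM in pMCAO, at a log2 fold change of 0.34 ± 0.26 (standard error), or 0.22 without sham replicate 5. mmu-miR-93-3p ran from 41.4 to 60.5 CPM in sham and from 50.8 to 61.9 CPM in pMCAO, at a log2 fold change of 0.12 ± 0.15 (standard error). Leaving out 1 library gave 0.20 to 0.45 for mmu-miR-106b-3p (lowest without pMCAO replicate 3) and 0.07 to 0.18 for mmu-miR-93-3p (lowest without pMCAO replicate 1, highest without sham replicate 5). Both overlapped between the groups and were not called.

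As a share of both arms, the 3p arm of mir-17 was 14.9% ± 6.28 in sham (SD, n = 6) and 15.6% ± 2.60 in pMCAO (SD, n = 5). The sham value rests on sham replicate 5, at 27.5%, where the other 5 libraries lay between 10.98% and 14.8%, and without it the sham mean was 12.4% ± 1.51. The 3p arm of mir-93 was 5.55% ± 1.81 in sham and 4.90% ± 0.947 in pMCAO, with sham replicate 5 at 9.12% and a sham mean of 4.83% ± 0.493 without it. That of mir-106b was 3.31% ± 0.994 in sham and 3.69% ± 0.651 in pMCAO, with a sham mean of 3.62% ± 0.708 without sham replicate 5. None of the 3 shares differed between the groups by more than the spread of the libraries while sham replicate 5 was kept. Without it, the share of mir-17 was 3.20 percentage points higher in pMCAO.

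Ordered by cluster, the 6 miR-17/miR-92a members had a median log2 fold change of 0.83 (range 0.36 to 1.20) and the 4 miR-106b/miR-25 members a median of 0.21 (range 0.12 to 0.34), beside 0.0015 over all 479 tested miRNAs. All 10 of 10 members were above 0 under each scaling that was run, and 50.3% of all tested miRNAs were above 0 with TMM. For 5 of the 10, all from miR-17/miR-92a, the lowest pMCAO library was above the highest sham library, which held for 4.18% of all tested miRNAs. Along the miR-17/miR-92a transcript the log2 fold changes were 0.66 and 0.86 for the arms of mir-17, then 1.20 for mmu-miR-18a-5p, 1.00 for mmu-miR-19a-3p, 0.80 for mmu-miR-20a-5p and 0.36 for mmu-miR-19b-3p. The hairpins at the ends of the clusters carry the seed of miR-25 and miR-92a. mmu-miR-92a-3p, the last of miR-17/miR-92a but also cut from Mir92-2 on chromosome X, was called at 0.88 (standard error 0.21). mmu-miR-25-3p, the last of miR-106b/miR-25, was not called at 0.65 (standard error 0.31). It begins with C and lay at -1.37 from its group mean in sham replicate 5, and its fold change is given only with that library kept. The remaining 6 arms of both clusters had at most 11 counts in any library and were not tested.

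**Figure D4:**
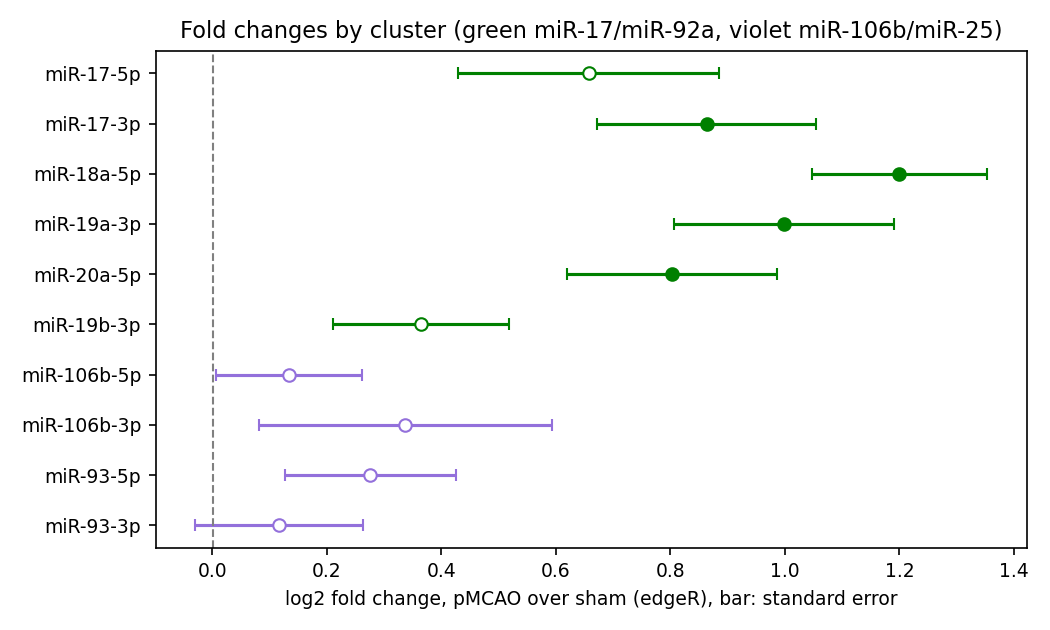
The log2 fold change of pMCAO over sham from edgeR (x axis) for the 10 members (y axis, in cluster order), with bars for the standard error, green for miR-17/miR-92a and violet for miR-106b/miR-25. Filled points are the 4 called members, all of miR-17/miR-92a, and the dashed line at 0.0015 is the median of all 479 tested miRNAs.

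The 10 members summed to 5141 ± 383 CPM in sham and 6993 ± 1528 CPM in pMCAO, a difference of 1852 CPM, and the ranges overlapped. By means, mmu-miR-19b-3p was 34.0% of this difference, mmu-miR-20a-5p 19.6%, mmu-miR-19a-3p 11.3%, mmu-miR-93-5p 10.3% and mmu-miR-18a-5p 9.07%, although mmu-miR-19b-3p and mmu-miR-93-5p overlapped between the groups and were not called. In pMCAO the order of levels matched that in sham except that mmu-miR-17-3p was above mmu-miR-93-3p in 5 of 5 libraries. The mean log2 ratio of mmu-miR-106b-5p over mmu-miR-20a-5p was 0.75 ± 0.15 in sham (SD, n = 6) and 0.11 ± 0.23 in pMCAO (SD, n = 5).

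The pMCAO libraries differed among themselves. Replicates 2 and 3 gave the 2 highest pMCAO levels for 9 of the 10 members, and replicate 2 the highest for 8 of 10. Replicate 2 was also the library with the fewest counts, 744877. Without it, 4 members were called, where 17 of all 487 tested miRNAs were called (14 higher). In that fit the median log2 fold change of the miR-17/miR-92a members was 0.71, beside 0.024 over all tested miRNAs. As above, nothing is read from the count of members.

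Most miRNAs typical of leukocytes were higher in pMCAO too. Of 6 such miRNAs, all tested and none at 0, 5 were called higher in pMCAO, and the median log2 fold change of the list was 1.50. mmu-miR-223-3p, typical of neutrophils and monocytes, stood at 249 ± 123 CPM in sham (SD, n = 6) and 1239 ± 893 CPM in pMCAO (SD, n = 5). The exception was mmu-miR-150-5p, typical of lymphocytes, at -0.25 and not called. The summed level of the list was 2463 to 3787 CPM in sham and, in pMCAO replicates 1 to 5, 3286, 6649, 4452, 3502 and 3401 CPM, so replicates 2 and 3 were again the highest. This sum is mostly mmu-miR-150-5p, at 2735 ± 474 CPM in sham. In all 5 pMCAO libraries mmu-miR-223-3p (427 CPM or more), mmu-miR-142a-5p (118 CPM or more) and mmu-miR-155-5p (9.86 CPM or more) were above the highest sham library, at 411, 105 and 4.49 CPM. The groups overlapped for mmu-miR-142a-3p (from 188 CPM in pMCAO, up to 197 CPM in sham), mmu-miR-146a-5p (from 66.0 CPM, up to 92.5 CPM) and mmu-miR-150-5p. Over all tested miRNAs, 4.18% had every pMCAO library above every sham library. The part of leukocytes in the members' levels was not tested.

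Among the other cell type lists, 1 miRNA was called. Of 5 erythrocyte miRNAs, 2 were tested and 0 called, and the sum of the list was 5375 CPM in sham replicate 1, at most 272 CPM in the other sham libraries and 640 to 4735 CPM in pMCAO. Neither of the 2 endothelial miRNAs was called, with sums of 9192 to 13016 CPM in sham and 9518 to 13653 CPM in pMCAO. Of the 4 neuronal miRNAs 0 were called, with a median log2 fold change of -0.21. Their sums were 314454 to 402168 CPM in sham and 270914 to 319917 CPM in pMCAO, so they overlapped only at the edge. Of the 3 oligodendrocyte miRNAs mmu-miR-338-3p was called lower at -0.54. The part of these cells in the members' levels was not tested.

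The miRNAs whose pattern was most like that of the families were found by correlation with the mean log2 CPM of the 7 members of the 3 seeds, over 11 libraries after group means were removed. They were mmu-miR-142a-5p, of the leukocyte list, with a Pearson r of 0.85, mmu-miR-322-5p with 0.82 and mmu-miR-145a-3p with 0.82. Their own log2 fold changes were 1.46 (standard error 0.28), 0.38 (standard error 0.15) and -0.07 (standard error 0.26). These correlations describe 11 libraries that share their scaling, with sham replicate 5 among them. mmu-miR-142a-5p and mmu-miR-322-5p begin with C, as do mmu-miR-17-5p and mmu-miR-93-5p of the 7 members. The ranking was not repeated without that library.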

How the data were processed

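The authors deposited raw counts per mature miRNA name, 1 table per library, without normalization. Per their methods, reads from an Ion Torrent sequencer were kept at 20 to 30 bp, checked with FastQC, mapped to mm10 with Bowtie and counted on miRBase entries with HTSeq. The settings for reads with several matches are not given in the sources used here. Totals hold miRNA counts only, and reads without molecular identifiers leave PCR copies in the counts.

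The members and all lists were chosen with earlier results of these data known. Libraries were grouped by their labels. In R 4.3.3, edgeR 4.0.16 kept miRNAs with filterByExpr (minimum count 10, minimum total 15) and tested pMCAO against sham on all 479 by glmQLFit and glmQLFTest with TMM scaling, no covariate and Benjamini-Hochberg adjustment (threshold 0.05). DESeq2 1.42.0 was an alternative. The TMM factor was 0.948 ± 0.0601 over the 6 sham and 1.07 ± 0.0454 over the 5 pMCAO libraries (SD). Shares were taken from counts within a library. All 25 pairs of libraries within a group differed by more than sampling noise (lowest chi-square per degree of freedom 20.6). The scripts were tested on simulated counts.

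All 10 members, the other arms of both clusters that passed the filter, names with a member's seed and the 3 tested miRNAs most like the families were named. Sequences came from RefSeq, with 417 of 479 tested names matched, and loci from GENCODE vM21.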

Additional observations from a re-analysis of the deposited data

Results flagged for a closer look

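Among 34 sets of library values (log2(CPM + 1) of each member, the summed miR-17 and miR-19 seeds, the miR-17/miR-92a and mmu-miR-19a-3p shares of their seeds and the 3p share of 3 hairpins, each in sham and in pMCAO), 5 held a library far from the others by Dixon's criterion, where chance gives about 1.7. Of these 5, 4 were sham replicate 5. The log2(CPM + 1) of mmu-miR-17-5p was 6.96 there, against 8.21 to 8.38 in the other sham libraries, and that of mmu-miR-93-5p was 9.24, against 9.84 to 10.01. The 3p share was 27.5% for mir-17, against 10.98% to 14.8%, and 9.12% for mir-93, against 4.04% to 5.29%. Both 5p arms begin with C and both 3p arms with A, and the cause was not tested. The log2(CPM + 1) of mmu-miR-106b-5p was 9.95 in sham replicate 2, the deepest library, against 9.53 to 9.69 in the other sham libraries.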

How the results depend on the processing

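Against 34 calls over all tested miRNAs (21 higher, 13 lower), keeping only miRNAs with 10 or more counts in each library gave 18, and leaving out 1 library gave 16 to 36 (19 without sham replicate 2, 16 without sham replicate 3, 19 without sham replicate 4, 20 without sham replicate 6, 17 without pMCAO replicate 2 and 21 without pMCAO replicate 5), with fewer libraries in the fit. Scaling by total counts alone gave 43 higher and 1 lower and moved the median over all tested miRNAs to 0.18 (log2), relative to which the medians of 1.02 for miR-17/miR-92a and 0.39 for miR-106b/miR-25 are to be read. Upper-quartile scaling gave 23 higher and 4 lower, no filter 25 and 8, and DESeq2 29 and 16.

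In 19 alternative fits all 10 members stayed above 0. mmu-miR-18a-5p, mmu-miR-19a-3p and mmu-miR-20a-5p were called in 19 of 19 and mmu-miR-17-3p in 18. mmu-miR-17-5p was called in 2, by DESeq2 (0.66) and with total counts alone (0.84). mmu-miR-19b-3p and the 4 miR-106b/miR-25 members were called in 0 of 19. The labels do not say that replicate numbers pair the mice. After group means were removed, correlations of same-numbered libraries ran from -0.08 to 0.23, and 3 of 5 were over 0.1. Of the 5 pMCAO libraries, 1 correlated best with its own number. So few values cannot decide whether same-numbered libraries share a batch. With the replicate block, 22 miRNAs were called (19 higher, 3 lower), and mmu-miR-17-3p was not (0.80). The cause was not tested.

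The difference in the miR-17/miR-92a share of the miR-17 seed was 10.8 percentage points among members that begin with U, an alternative chosen after seeing the data. Leaving out 1 library gave differences (pMCAO minus sham) of -0.09 to 3.20 percentage points for the 3p share of mir-17 and -0.96 to 0.07 for that of mir-93, so neither has a settled direction. The order test was not repeated without a library, since 5 libraries cannot give an exact permutation p under 0.05.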
